A study of Mus musculus with 11 samples.

Results

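The lung epithelial markers Aqp5, Pdpn, Ager, Hopx, Nkx2-1, Sftpc, Sftpa1, Cldn18, Epcam and Cdh1 were followed in cultured fetal lung mesenchymal cells with and without the transcription factor Sp3. The 10 genes were chosen by symbol, and all were among the 24062 genes counted. The question was whether the rise of Aqp5 in cells without Sp3 came with other epithelial markers or stood by itself. Primary cells were taken from the lungs of embryonic day 15 mice, allowed to attach to culture plastic and passaged, so they were a cultured population and not sorted cells. There were 4 WT libraries (Sp3+/+), 4 Sp3+/- libraries with one intact Sp3 allele and 3 Sp3-/- libraries with none. The labels name no further allele or agent for these libraries, and do not say whether a library came from a single embryo or a pool. The deposited count file of every library carries the word CTRL in its name, which the sources used here do not explain. With the embryos behind each library not stated, p-values measured the spread between libraries.

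Lung epithelium lines the airways and air sacs, and at the embryonic stage used here it is a branching tube wrapped in mesenchyme. Its identity is set by Nkx2-1, a homeodomain transcription factor. The distal tube later gives rise to flat alveolar type 1 cells, which carry gas exchange, and cuboidal alveolar type 2 cells, which make surfactant. Aqp5 is a water channel of the apical membrane of type 1 cells, Pdpn (podoplanin) a surface sialoglycoprotein, Ager the receptor for advanced glycation end products and Hopx an atypical homeodomain protein, all used as type 1 markers. Sftpc and Sftpa1 encode surfactant proteins of type 2 cells, and Cldn18 a tight junction claudin of alveolar epithelium. Epcam and Cdh1 (E-cadherin) encode adhesion proteins found in most epithelia. Pdpn is less specific than the rest, since mesothelial, lymphatic endothelial and some mesenchymal cells also make it.

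Sp3 binds GC boxes, so the promoters of those members that were higher in Sp3-/- cells are shown where RefSeq gave a window. Each window ran from 250 bases before to 50 bases after the start site, in the direction of the gene, on build GRCm38.p6. Capitals mark the GC box (GGGCGG, or CCGCCC on the other strand) and the E-box that repressors of epithelial genes can bind (CACCTG or CAGGTG), and the 2 motifs did not overlap. The windows were chr15:99590778-99591077 on the plus strand for Aqp5, chr4:143299515-143299814 on the minus strand for Pdpn and chr17:87635729-87636028 on the plus strand for Epcam.
Aqp5: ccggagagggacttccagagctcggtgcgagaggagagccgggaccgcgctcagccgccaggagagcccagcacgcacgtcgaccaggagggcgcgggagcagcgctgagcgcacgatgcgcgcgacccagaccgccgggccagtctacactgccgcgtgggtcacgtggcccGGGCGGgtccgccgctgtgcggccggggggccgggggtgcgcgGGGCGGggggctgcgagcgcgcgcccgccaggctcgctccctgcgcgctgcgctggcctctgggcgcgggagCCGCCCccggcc
Pdpn: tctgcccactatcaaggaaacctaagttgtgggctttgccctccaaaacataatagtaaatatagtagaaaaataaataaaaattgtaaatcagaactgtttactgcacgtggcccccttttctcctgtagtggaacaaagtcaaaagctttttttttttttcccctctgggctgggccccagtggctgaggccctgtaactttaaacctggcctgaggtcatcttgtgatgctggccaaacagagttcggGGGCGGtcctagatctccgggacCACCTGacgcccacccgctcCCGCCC
Epcam: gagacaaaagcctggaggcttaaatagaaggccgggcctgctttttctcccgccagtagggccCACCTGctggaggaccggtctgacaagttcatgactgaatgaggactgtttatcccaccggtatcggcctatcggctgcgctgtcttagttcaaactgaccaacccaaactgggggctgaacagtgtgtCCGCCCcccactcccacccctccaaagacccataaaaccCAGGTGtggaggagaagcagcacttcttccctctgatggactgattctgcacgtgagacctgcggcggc

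The Aqp5 window was 79.7% G and C and held 3 GC boxes, at -77, -34 and +38 from the start site, and no E-box. The Pdpn window (48.7% G and C) had GC boxes at +1 and +44 and an E-box at +24. In the Epcam window (57.0% G and C) a GC box stood at -58 and E-boxes at -187 and -19. A GC box was present in 35.7% and an E-box in 20.2% of all 32851 promoter windows of this length. RefSeq windows were found for 8 of the 10 members, and among the members that were not called, Nkx2-1 had a GC box at -182 and an E-box at -205, whereas Ager, Hopx, Sftpa1 and Cldn18 had neither. A match of letters is a description of the window and not evidence of binding.

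Between 9849111 and 59297495 reads were counted on genes per library, so that 3 counts corresponded to 0.0512 to 0.300 CPM (counts scaled to a common library total). Sp3 itself measured 60.7 to 107.3 CPM in WT, 51.8 to 71.6 in Sp3+/- and 14.4 to 18.9 in Sp3-/- cells, with all Sp3-/- libraries below all others. The mesenchymal genes Col1a1, Col1a2 and Vim averaged 6621, 5686 and 2636 CPM over the 11 libraries. Library titles end in no suffix, 2 or 3, and the sources used here do not explain it. All 3 Sp3-/- libraries had no suffix, as did only WT library 468-4 and Sp3+/- library 697-4 by their titles, so genotype and suffix can hardly be told apart. The deposited file of 697-4, however, carries the suffix 2 in its name, and values by suffix follow the titles unless stated. Changes were tested with edgeR's quasi-likelihood test and named as called at an adjusted p below 0.05 after Benjamini-Hochberg adjustment over all genes tested.

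The members fell into 3 ranges of expression in WT cells. Per kilobase of exon, Pdpn measured 40.6 ± 10.8 CPM (SD, n = 4) and Aqp5 3.16 ± 1.59. Ager (0.452 ± 0.254) and Hopx (0.343 ± 0.115) followed and did not differ beyond their spread. Sftpc averaged 1.10 CPM per kilobase in WT with an SD of 2.17, because nearly all of its counts came from WT library 685-2. Nkx2-1, Cdh1, Epcam, Sftpa1 and Cldn18 averaged 0.142, 0.0344, 0.0339, 0.0228 and 0.00541, in each case with an SD larger than the mean. Pdpn and Aqp5 were thus the only members with more than 100 counts in every WT library.

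In Sp3-/- cells the order per kilobase was Pdpn (79.3 ± 11.5, SD, n = 3), Aqp5 (38.5 ± 15.8), Cdh1 (0.974 ± 0.381), Ager (0.645 ± 0.135), Epcam (0.363 ± 0.117) and Hopx (0.292 ± 0.101). Cdh1 and Ager did not differ beyond their spread, nor did Epcam and Hopx. Nkx2-1, Sftpc, Cldn18 and Sftpa1 averaged 0.0338, 0.0485, 0.0321 and 0.00251. Cdh1 and Epcam therefore stood beside Ager and Hopx in Sp3-/- cells, and below them in WT cells.

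**Figure D1:**
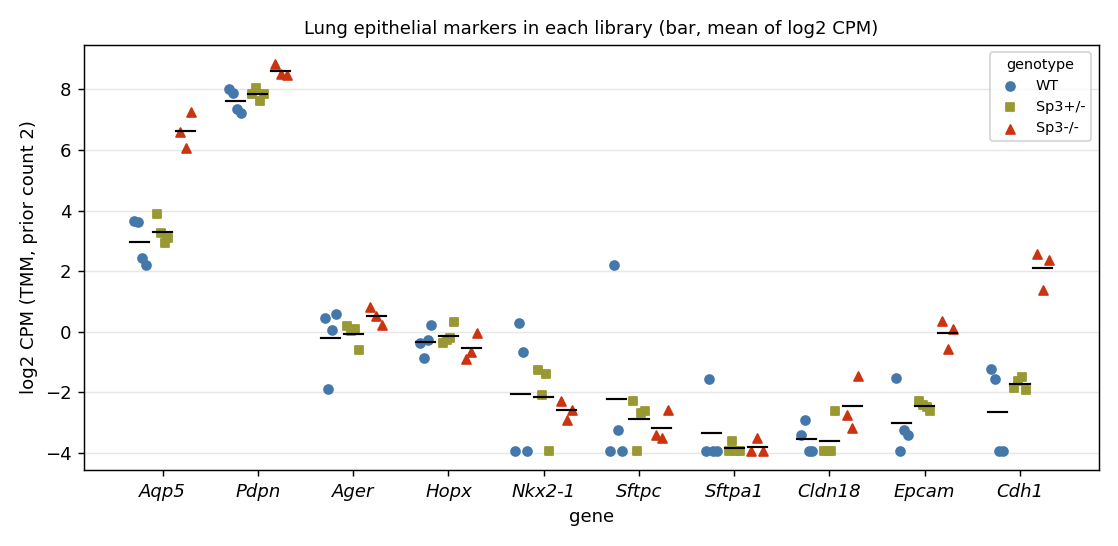
Level of each of the 10 markers in each library, as log2 CPM with a prior count of 2 (vertical axis), with WT, Sp3+/- and Sp3-/- libraries side by side and a bar at the mean of each genotype. The Sp3-/- libraries lie above all others for Aqp5, Pdpn, Epcam and Cdh1, and a single WT library stands high for Sftpc.

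Aqp5 (chromosome 15, 99591028 to 99594829, GRCm38.p6) measured 12.5, 12.2, 5.30 and 4.50 CPM in WT libraries 468-4, 685-2, 697-1 and 697-3. Sp3+/- libraries 468-3, 685-5, 685-7 and 697-4 gave 14.6, 9.53, 7.51 and 8.53 CPM. In Sp3-/- libraries 685-1, 697-2 and 697-5 it was 96.1, 67.4 and 152.1 CPM. The lowest Sp3-/- library was more than 4 times the highest of the others, and WT and Sp3+/- libraries overlapped. Of the 2 Sp3-carrying libraries without a title suffix, WT 468-4 (12.5 CPM) was the highest of its genotype and Sp3+/- 697-4 (8.53) lay within the range of the others. Against WT the log2 fold change was 3.62, with a standard error of 0.466, and against Sp3+/- cells it was 3.40 (standard error 0.431). Both are given without a test, because the rise in these 3 Sp3-/- libraries was known when the markers were drawn up. RefSeq places a long noncoding RNA, Gm34765, across Aqp5, and since the counting is not stated to use strand, reads from this RNA and from Aqp5 could not be told apart.

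Of the other 9 members, 7 could be tested against WT, and 3 of them (Pdpn, Epcam and Cdh1) were called higher and 0 lower. Over all 14025 genes tested, 18.5% were called, 8.76% higher and 9.77% lower, and in 31.3% of them (15.1% higher, 16.2% lower) the Sp3-/- and WT libraries did not overlap, as was the case for the 3 called members. The same 3 genes, and no other of the 9, were called higher against Sp3+/- cells, where 25.5% of 14130 genes were called (13% higher, 12.5% lower) and 34% (16.4% higher, 17.7% lower) did not overlap. In both comparisons, Epcam and Cdh1 passed the filter on low counts only through the Sp3-/- libraries, and Nkx2-1 and Sftpc only through WT library 685-2. Against WT, Hopx passed only through WT library 697-3. It changed by -0.35 (adjusted p = 0.601, edgeR) when every gene with a count was kept. The counts of called members are therefore descriptions. In the fit that kept every gene with a count, the adjusted p-values of Epcam and Cdh1 were 0.0387 and 0.0202 against WT (edgeR). Against Sp3+/- cells they were 0.0136 and 0.0053 in that fit. Sftpa1 and Cldn18 stayed below the filter.

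Cdh1 (chromosome 8, 106603350 to 106670247), the cadherin that holds epithelial cells together, had 13, 4, 0 and 0 counts in WT libraries 468-4, 685-2, 697-1 and 697-3. Its counts were 3, 15, 13 and 4 in Sp3+/- libraries 468-3, 685-5, 685-7 and 697-4. Sp3-/- libraries 685-1, 697-2 and 697-5 held 211, 112 and 51 counts, or 5.91, 2.53 and 5.11 CPM, against at most 0.365 CPM in any other library. The log2 fold change was 4.81 against WT (standard error 0.951, adjusted p = 0.0202, edgeR) and 4.17 against Sp3+/- cells (standard error 0.762, adjusted p = 0.00593). The fitted change of Cdh1 thus started from a level near the count floor, and its difference from that of Aqp5 was not tested.

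Epcam (chromosome 17, 87635979 to 87651127), an adhesion molecule used to sort epithelial cells, had 10, 0, 1 and 1 counts in the WT libraries in the same order, and 2, 7, 5 and 2 in the Sp3+/- libraries. The Sp3-/- libraries held 43, 27 and 10 counts, or 1.21, 0.609 and 1.00 CPM. No Sp3-/- library overlapped any other library on the CPM scale, since the highest of the others was WT library 468-4 at 0.281. The log2 fold change was 3.12 against WT (standard error 0.810, adjusted p = 0.0379, edgeR) and 2.96 against Sp3+/- cells (standard error 0.676, adjusted p = 0.0131).

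Pdpn (chromosome 4, 143267409 to 143299564) was abundant in every genotype. It measured 257.2, 235.2, 163.7 and 148.0 CPM in the WT libraries, 228.1, 264.3, 196.8 and 230.3 in Sp3+/- and 458.0, 368.0 and 353.1 in Sp3-/-. All Sp3-/- libraries were higher than all others. The log2 fold change was 0.96 against WT (standard error 0.211, adjusted p = 0.0257, edgeR) and 0.77 against Sp3+/- cells (standard error 0.194, adjusted p = 0.0185), a smaller change than that of the other called members.

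The remaining type 1 markers did not follow. Ager (chromosome 17, 34597460 to 34600937) measured 1.29, 0.205, 0.971 and 1.42 CPM in WT and 1.68, 1.38 and 1.10 in Sp3-/- libraries, a change of 0.48 on the log2 scale (standard error 0.525, adjusted p = 0.537, edgeR). The Sp3-/- libraries were all above the Sp3+/- range of 0.595 to 1.06 CPM, but the change of 0.63 was not called (adjusted p = 0.337). Hopx (chromosome 5, 77086986 to 77115123) measured 0.702, 0.478, 0.768 and 1.10 CPM in WT, 0.708 to 1.19 in Sp3+/- and 0.476, 0.564 and 0.901 in Sp3-/- libraries. Its log2 fold change was -0.33 against WT (standard error 0.417, adjusted p = 0.592, edgeR) and -0.49 against Sp3+/- cells (adjusted p = 0.345), and the genotypes overlapped.

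Nkx2-1 (chromosome 12, 56531935 to 56536908) had 0, 17, 14 and 0 counts in WT libraries 468-4, 685-2, 697-1 and 697-3, and 1 to 5 counts in each Sp3-/- library. It averaged 0.103 CPM in Sp3-/-, 0.209 in Sp3+/- and 0.432 in WT libraries, and was not called (adjusted p = 0.431 against WT and 0.649 against Sp3+/-, edgeR). Sftpc (chromosome 14, 70520941 to 70524081) had 66 counts in WT library 685-2, 0 to 1 in the other WT libraries, 0 to 4 in Sp3+/- and 1 in each Sp3-/- library (adjusted p = 0.227 against WT, edgeR). Sftpa1 (chromosome 14, 41131788 to 41136373) was read 4 times in WT library 685-2 and at most once elsewhere. Cldn18 (chromosome 9, 99690796 to 99717267) totalled 2 counts over the WT, 2 over the Sp3+/- and 8 over the Sp3-/- libraries, with 2 to 3 in each of the latter. The lung epithelial transcription factor and the surfactant genes were therefore at or near the count floor in the same 3 libraries in which Cdh1 and Epcam stood above it.

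**Figure D2:**
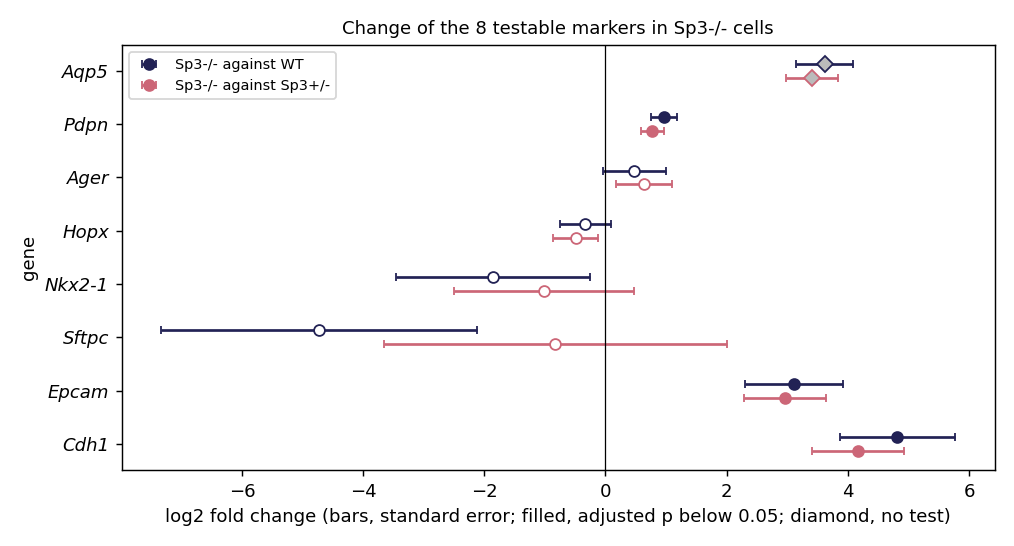
Log2 fold change (horizontal axis) with its standard error for the 8 markers that passed the filter, in Sp3-/- against WT and against Sp3+/- cells, with filled circles for an adjusted p below 0.05 and grey diamonds for Aqp5, which is shown without a test. Aqp5, Pdpn, Epcam and Cdh1 lie above 0 in both comparisons, and Nkx2-1 and Sftpc have the widest bars.

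In Sp3+/- cells the markers stayed with WT. Of the 8 members tested against WT, 0 were called by edgeR, 0 had an unadjusted p below 0.05 and in 0 did the genotypes separate. Over all 14130 genes tested, 0% were called, 1.39% did not overlap (0.694% in each direction), 246 genes had an unadjusted p below 0.05, and DESeq2 and limma-voom called 0 as well. The fitted changes on the log2 scale were 0.20 for Aqp5 (standard error 0.394), 0.18 for Pdpn (0.181), 0.64 for Cdh1 (0.849) and 0.16 for Epcam (0.777), each with an adjusted p of 1 (edgeR).

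The calls of Epcam and Pdpn against WT were lost in most fits with a library left out. Against WT, leaving out each of the 7 libraries in turn gave 3 called members of the other 9 without WT library 468-4 and 2 without Sp3-/- library 697-5. There was 1, Cdh1, without Sp3-/- library 685-1, WT 697-1 or WT 697-3, and 0 without WT 685-2 or Sp3-/- 697-2. The count over all genes moved as well, from 2599 to between 282 (without 697-2) and 4179 (without 468-4). The fold changes themselves stayed between 4.34 and 6.13 for Cdh1, 2.78 and 4.87 for Epcam and 0.84 and 1.10 for Pdpn. Against Sp3+/- cells, Cdh1 and Epcam were called in all 7 fits with a library left out, and Pdpn in 5. With the title suffix as a covariate, Cdh1 was still called against WT (4.26, adjusted p = 0.0339, edgeR) and Epcam (2.31, adjusted p = 0.0800) and Pdpn (0.76, adjusted p = 0.0897) were not. Against Sp3+/- cells the same covariate left Cdh1 at 3.30 (adjusted p = 0.112), Epcam at 1.82 (adjusted p = 0.215) and Pdpn at 0.58 (adjusted p = 0.194), and 0 of the 9 called. With the suffix taken from the file names, so that WT 468-4 was the only Sp3-carrying library without one, 0 of the 9 were called in either comparison. Over all 14130 genes that fit called 163 against WT and 0 against Sp3+/- cells, so the latter count says nothing about the members. By file name no suffix was shared by Sp3-/- and Sp3+/- libraries, so their comparison was indirect and rested on WT 468-4. In that fit Cdh1 changed by 3.60 and Epcam by 1.70 against WT (adjusted p = 0.142 and 0.221, edgeR), Epcam turned to -0.22 against Sp3+/- cells (adjusted p = 0.947), and Aqp5 changed by 3.07 and 2.84.

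Longer lists of epithelial genes, written for this purpose, showed which kinds of genes accompanied Aqp5. Their counts stand beside the shares over all genes tested. These were 8.76% called higher and 9.77% lower against WT, and 13% and 12.5% against Sp3+/- cells. Of 22 pan-epithelial genes (keratins, claudins, adhesion molecules and membrane protease inhibitors), 16 were tested against WT, 7 were called higher and 0 lower, and the median log2 fold change was 1.65 against -0.003 over all genes. Without Cdh1 and Epcam, the called genes were Krt7 and Krt18, keratins of simple epithelia, Spint1 and Spint2, Kunitz-type protease inhibitors of epithelial membranes, and the anchoring filament protein Lad1 (2.64, adjusted p = 0.0366, edgeR). Of the 16 genes, 5 (Epcam, Cdh1, Lad1, Prss8 and Marveld2) passed the filter on low counts only through the Sp3-/- libraries, so they could enter only by being high there. Among the other 11, 4 were called higher and 0 lower, with a median of 1.58. Against Sp3+/- cells 8 of 16 were called higher and 0 lower. There too, the same 5 genes passed the filter only through the Sp3-/- libraries. Leaving out single libraries gave 0 calls against WT without WT 685-2 or Sp3-/- 697-2, 1 without WT 697-3, 2 without WT 697-1 and 4 without Sp3-/- 685-1, the suffix covariate gave 2 (0 with the suffix of the file names), and against Sp3+/- cells it gave 0 either way. The fit with the suffix of the file names called 0 of all genes against Sp3+/- cells.

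Spint1 measured 15.9, 9.29, 4.00 and 4.92 CPM in WT, 94.3, 46.9 and 36.2 in Sp3-/- and 7.22 to 11.5 in Sp3+/- libraries, a rise of 2.78 on the log2 scale against WT (standard error 0.533, adjusted p = 0.0187, edgeR). Krt18 measured 19.3, 25.3, 22.4 and 12.3 CPM in WT and 103.8, 57.8 and 36.5 in Sp3-/- libraries (1.73, standard error 0.365, adjusted p = 0.0235), and Krt7 51.7, 47.1, 20.5 and 23.4 against 236.5, 97.7 and 66.6 (1.90, standard error 0.496, adjusted p = 0.0393). In Sp3+/- library 685-5 Krt7 measured 81.8 CPM, above Sp3-/- library 697-5 (66.6), so these genotypes overlapped. Krt7 was not called against Sp3+/- cells (1.254, adjusted p = 0.0639, edgeR), whereas Krt18 (adjusted p = 0.0118) and Spint1 (adjusted p = 0.00489) were. With a library left out, the call against WT was kept in 4 of 7 fits for Spint1, 3 for Krt18 and 2 for Krt7. Spint1, Krt18 and Krt7 were all highest in Sp3-/- library 685-1. Cdh3 (P-cadherin) was also abundant, at 222.0 and 130.4 CPM in Sp3-/- libraries 685-1 and 697-2 but 22.1 in 697-5, below all WT libraries, and was not called (1.72, adjusted p = 0.0823). Aqp5 had its highest value in 697-5, the library in which Krt18, Krt7 and Cdh3 were lowest of the Sp3-/- libraries.

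Among 10 further alveolar type 1 genes, all tested, 3 were called higher and 1 lower, with a median of 0.58. Akap5, an anchoring protein for protein kinase A, rose from 31.4 to 42.7 CPM in WT to 70.9 to 116.0 in Sp3-/- libraries (1.15, standard error 0.191, adjusted p = 0.0136, edgeR). Cyp2b10, a cytochrome P450, was called at 3.11 (adjusted p = 0.0221) from a mean of 0.515 CPM over all libraries, but had passed the filter only through the Sp3-/- libraries. Without it 2 of 9 were called higher and 1 lower, with a median of 0.44. Spock2 was called at 1.71 (adjusted p = 0.0299). Rtkn2 fell by 2.16 on the log2 scale (adjusted p = 0.0334), from 0.814 to 3.62 CPM in WT to 0.400 to 0.560 in Sp3-/- cells. The abundant Emp2 (-0.63, adjusted p = 0.0851) and Igfbp2 (-0.51, adjusted p = 0.700) were not called against WT. Clic5 was not called either (2.75, standard error 0.878, adjusted p = 0.0654, edgeR), though the Sp3-/- libraries did not overlap WT. It measured 24.7, 14.9 and 74.2 CPM in Sp3-/- libraries 685-1, 697-2 and 697-5, and 1.72 to 14.4 in WT. Like Aqp5, Clic5 was highest in 697-5. Against Sp3+/- cells 4 of the 10 were called higher and 2 lower, with a median of 0.51. Emp2 was one of those called lower (-0.65, adjusted p = 0.0451, edgeR). Cyp2b10 was one of those called higher, and again passed the filter only through the Sp3-/- libraries. The type 1 genes thus went both ways, with 6 fitted higher and 4 lower against WT. The count of calls against WT fell to 1 without WT 697-1, WT 697-3 or Sp3-/- 697-2.

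Of 12 alveolar type 2 genes only 5 could be tested, and 1 was called higher. This was Abca3, a lipid transporter of lamellar bodies that other cells also make, at 104.1 CPM on average over all libraries and 0.59 higher on the log2 scale (standard error 0.083, adjusted p = 0.00997, edgeR). Ctsh (0.35, adjusted p = 0.281) and Etv5 (0.91, adjusted p = 0.0529) were not called against WT, and Etv5 was called against Sp3+/- cells (1.07, adjusted p = 0.0186). Sftpb, Lamp3 and Slc34a2, which serve as markers of these cells, had at most 3 counts in every library. Of 12 airway genes 3 could be tested, Foxj1 only through the Sp3-/- libraries, and 0 were called against WT or Sp3+/- by edgeR, DESeq2 or limma-voom, with 0 at an unadjusted p below 0.05. In the fit that kept every gene with a count, edgeR called 1 higher against WT, and 1 higher and 1 lower against Sp3+/- cells. Scgb1a1, Scgb3a2, Cyp2f2, Trp63 and Tff2 had at most 3 counts in every library. Tppp3 (-0.71, adjusted p = 0.148) and Ccdc39 (0.17, adjusted p = 0.735), which ciliated cells carry, were the most abundant, and with the title suffix as a covariate Tppp3 was called lower (-1.13, adjusted p = 0.045, edgeR).

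Of 16 transcription factors and signals of lung epithelium, 10 were tested, with 1 called higher, 1 lower and a median of 0.09. These counts were near the shares over all genes, 8.76% higher and 9.77% lower. Cebpa, which acts in alveolar epithelium but also in myeloid cells and adipocytes, was called higher against WT (2.52, standard error 0.719, adjusted p = 0.0491, edgeR). It measured 38.2, 112.1 and 117.4 CPM in Sp3-/- libraries 685-1, 697-2 and 697-5, 38.8 in WT library 468-4 and 27.5 in Sp3+/- library 697-4, the 2 Sp3-carrying libraries without a title suffix, and 6.16 to 8.34 in all others. Fgfr2, a receptor for the growth factors that drive branching, was lower (-1.10, standard error 0.273, adjusted p = 0.0345), with 36.1 to 47.2 CPM in Sp3-/-, 50.6 and 50.2 in 468-4 and 697-4 and 92.2 to 114.7 in the others. For both genes 468-4 and 697-4 lay on the side of the Sp3-/- libraries, and neither was called with the suffix of the titles or of the file names as a covariate. Neither was called against WT without WT 685-2, 697-1 or 697-3 or Sp3-/- 697-2 or 697-5, and Fgfr2 was also not called without Sp3-/- 685-1. Gata6 (0.98, adjusted p = 0.0536) and Id2 (0.65, adjusted p = 0.160) were not called, and Shh and Elf5 had at most 3 counts in every library.

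Of 18 other junction genes 12 were tested, with 1 called higher and 1 lower, near the shares over all genes (8.76% higher, 9.77% lower). F11r, a junctional adhesion molecule, was called higher (1.17, adjusted p = 0.0426, edgeR) and Cldn1 lower (-2.61, standard error 0.461, adjusted p = 0.0153). Cldn1 measured 3.59 to 8.86 CPM in WT and 0.501 to 1.17 in Sp3-/- libraries. The abundant components Ctnnd1 (-0.46, adjusted p = 0.0905), Jup (0.21, adjusted p = 0.275) and Tjp1 (-0.47, adjusted p = 0.178) were not called. The median of the junction genes was 0.24, and leaving out Sp3-/- 697-2 left 0 of them called and leaving out WT 468-4 gave 5.

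Of 12 aquaporins, Aqp1, Aqp3, Aqp5 and Aqp9 passed the filter, and against WT 3 of them were fitted higher and 1 lower. Aqp9 passed only through Sp3-/- library 697-2. It measured 0.589, 2.08 and 0.801 CPM in Sp3-/- libraries 685-1, 697-2 and 697-5, and 0.162 to 0.702 in WT. Aqp9 was not called against WT, and was called higher against Sp3+/- cells (edgeR). Aqp1, a water channel of endothelium and mesothelium, fell from 6.74, 9.63, 5.62 and 3.20 CPM in WT to 1.74, 2.21 and 2.30 in Sp3-/- libraries (a log2 change of -1.6, standard error 0.387, adjusted p = 0.0320, edgeR), and lost its call without Sp3-/- 685-1, 697-2 or 697-5 or WT 685-2 or 697-1. Aqp3, which also carries glycerol, measured 0.786 to 1.21 CPM in WT and 1.71, 1.58 and 3.71 in Sp3-/- libraries, and was called against Sp3+/- cells (1.70, adjusted p = 0.0111) but not against WT (1.21, adjusted p = 0.0662). Aqp2 and Aqp6, which lie on either side of Aqp5 on chromosome 15 at distances of 6483 and 3639 bases, did not pass the filter. Of the next genes outward, Faim2 was higher in Sp3-/- cells (2.69, standard error 0.634, adjusted p = 0.0303) and Racgap1 was not called (-0.59, adjusted p = 0.311). Faim2 measured 2.41, 2.03 and 9.21 CPM in Sp3-/- libraries 685-1, 697-2 and 697-5, and at most 1.56 in any other. Its call was kept in 2 of 7 fits with a library left out, and was lost without WT 685-2, 697-1 or 697-3 or Sp3-/- 697-2 or 697-5, where without 697-5 the change was 1.67. It was also lost by limma-voom (2.07, adjusted p = 0.0517), with the block for the first title number (2.71, adjusted p = 0.0515) and with the suffix covariate (2.29, adjusted p = 0.110).

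Over the 11 libraries, the 5 genes whose log2 CPM was most like that of Aqp5, among 11203 with a mean above 2, were Nbr1 (Pearson r = 0.981), Crabp2 (0.976), Dtnb (0.975), Pltp (0.972) and Mettl7a1 (0.972). None of them was on the epithelial lists. The libraries fell into Sp3-/- and Sp3-carrying clusters, so these values describe a shared split and not a relation within a genotype.

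**Figure D3:**
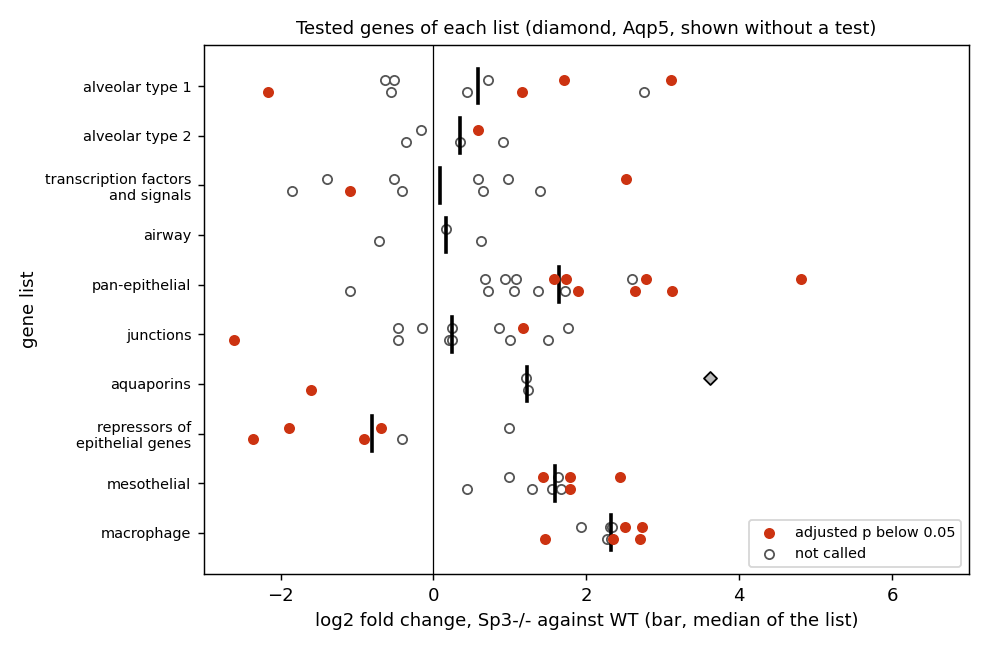
Log2 fold change of each tested gene in Sp3-/- against WT cells (horizontal axis) by gene list, with filled points for an adjusted p below 0.05, open points for genes not called, a grey diamond for Aqp5 and a bar at the median of each list. Pan-epithelial, mesothelial and macrophage genes lie mostly above 0, the transcription factors, airway and junction genes lie on both sides, and 5 of 6 repressors lie below 0.

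Repressors of epithelial genes, zinc finger and basic helix-loop-helix factors that bind E-boxes and silence Cdh1, were lower in part. Of 6 tested, 4 were called lower and 0 higher against WT (Snai1, Snai2, Zeb1 and Twist2), with a median of -0.80. Snai2 measured 22.0, 26.4, 34.01 and 27.8 CPM in WT, 22.9, 27.5, 31.6 and 13.9 in Sp3+/- and 5.997, 9.21 and 7.01 in Sp3-/- libraries (-1.90 against WT, standard error 0.213, adjusted p = 0.00733, edgeR). Zeb1 measured 84.2 to 118.7 CPM in WT and 59.8, 50.3 and 57.3 in Sp3-/- libraries (-0.91, standard error 0.137, adjusted p = 0.0113), and Twist2 7.65 to 16.1 against 1.597 to 3.05 (-2.36, standard error 0.393, adjusted p = 0.0136). Snai1 fell by 0.69 on the log2 scale (adjusted p = 0.0384). Zeb2, the most abundant repressor at 170.5 CPM on average over all libraries, went the other way (0.98, adjusted p = 0.0533 against WT, and called higher at 0.92, adjusted p = 0.0360, against Sp3+/-). With the suffix covariate 2 repressors were called lower against WT, as without Sp3-/- library 697-2, and 1 with the suffix of the file names. Twist2 was also low, at 1.74 CPM, in Sp3+/- library 697-4.

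Mesothelial and macrophage markers were also fitted higher in Sp3-/- cells. Of 10 mesothelial genes tested, 4 were called higher against WT and 0 lower, with a median of 1.59. Against Sp3+/- cells 2 were called higher and 0 lower, with a median of 0.86, and in Sp3+/- against WT the 10 genes had a median of 0.65 with 0 called. Mesothelium covers the lung and itself makes simple keratins. The summed level of the 11 mesothelial markers was 848 to 2025 CPM in WT, 1789 to 3136 in Sp3+/- and 2360 to 7200 in Sp3-/- libraries. Msln (mesothelin) measured 81.9 to 309.0 CPM in WT and 2055, 1049 and 325.3 in Sp3-/- libraries 685-1, 697-2 and 697-5 (2.44, standard error 0.662, adjusted p = 0.0431, edgeR), and was not called against Sp3+/- cells (1.54, adjusted p = 0.0862). Against WT Upk1b was called (1.79, adjusted p = 0.0340) and Upk3b was not (0.98, adjusted p = 0.0804). With WT 685-2, 697-1 or 697-3 or Sp3-/- 685-1 or 697-2 left out, 1 mesothelial gene was called. Sp3+/- library 685-5 had a mesothelial sum of 3136 CPM, with 9.53 CPM of Aqp5 and 0.256 of Cdh1. Sp3-/- library 697-5 had a sum of 2360 CPM, with 152.1 CPM of Aqp5 and 5.11 of Cdh1. In bulk RNA, fewer or more cells of a type and less or more RNA per cell cannot be told apart.

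The 10 macrophage markers had 5 genes called higher against WT and 0 lower, with a median of 2.33, and 9 called higher against Sp3+/- cells, with a median of 2.74. They summed to 594.7 to 3110 CPM in WT, 355.9 to 2938 in Sp3+/- and 2988 to 11130 in Sp3-/- libraries. Lyz2 and C1qb, the most abundant of those called, rose by 2.73 and 2.50 on the log2 scale (adjusted p = 0.0423 and 0.0435, edgeR), and Cd68 was not called (2.27, adjusted p = 0.0688). The count was 10 without WT 468-4 and 0 without WT 685-2, 697-1 or 697-3 or Sp3-/- 697-2 or 697-5, as with the suffix covariate. The macrophage sum was 355.9 to 864.9 CPM in all libraries with a title suffix, so for these markers genotype and suffix could not be told apart. It was 3110 CPM in WT library 468-4 and 2938 in Sp3+/- library 697-4, both without a title suffix, and 2988 in Sp3-/- library 685-1. In the same order these libraries held 12.5, 8.53 and 96.1 CPM of Aqp5 and 0.365, 0.198 and 5.91 of Cdh1. No mesothelial or macrophage marker was at 0 in every library. The part of either cell type in the changes of Aqp5, Cdh1, Epcam, Pdpn and the keratins was not tested.

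**Figure D4:**
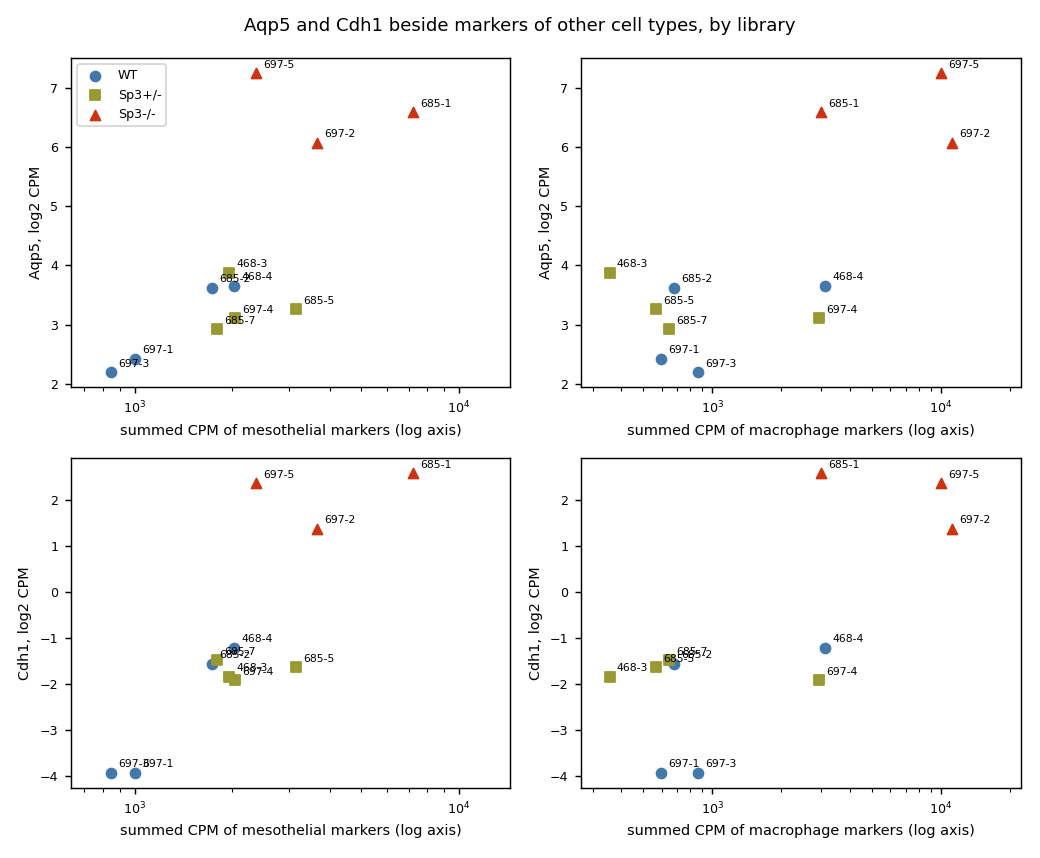
Level of Aqp5 (upper panels) and Cdh1 (lower panels) as log2 CPM in each library, against the summed CPM of mesothelial (left) and macrophage (right) markers on log axes, with points marked by genotype and library. The Sp3-/- libraries lie highest for Aqp5 and Cdh1. Along the horizontal axes, mesothelial sums of Sp3-/- (from 2360 CPM) overlap those of Sp3+/- (up to 3136) but not those of WT (up to 2025). Macrophage sums of Sp3-/- (from 2988 CPM) overlap those of WT (up to 3110) but not those of Sp3+/- (up to 2938).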

How the data were processed

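RNA from 11 cultures of primary embryonic day 15 fetal lung mesenchymal cells was made into TruSeq libraries and read as 50 bp single ends. The authors aligned the reads with STAR 2.4.5a to mm10 (GRCm38) after FastQC 0.10.1 and deposited whole-number counts per gene symbol from HTSeq, with no normalization. The annotation version and strand setting are not given in the sources used here. The tallies outside genes, 38.4% to 40.9% of each library, were left out.

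Genotypes were taken from the labels. A gene was kept where CPM exceeded 1 in 1 or more of the libraries fitted, and was tested with edgeR 4.0.16 (TMM, quasi-likelihood) in R 4.3.3, on 7 libraries for Sp3-/- against WT and on all 11 for comparisons with Sp3+/-. Each standard error was computed from the fold change and its test statistic. Values of single libraries are CPM with TMM factors, and log2 CPM a prior count of 2. Exon lengths were those of GENCODE vM39 by symbol, and coordinates and promoters those of RefSeq on GRCm38.p6. The members and all lists were chosen with earlier results of these data known. Named genes were the 10 members and Sp3, from each list the 3 of highest mean CPM and up to 3 called genes with more than a 4-fold change, the aquaporins, the genes flanking Aqp5 and the 5 most correlated with it. Clic5, Spock2, Spint2, Lad1, Snai1 and F11r were named after their values were seen, as were genes named for low counts.

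Alternatives were DESeq2 1.42.0, limma-voom (limma 3.58.1) without and with a consensus correlation, library size alone, no filter, filterByExpr, the title suffix as covariate, a block for the first title number, all 11 libraries or only those of the 2 genotypes, and each library left out. The fits of libraries without a suffix and with the suffix of the file names as covariate were added after the data were seen. The code was tested on simulated data. The sources used here do not say what the first title number marks, and it was not used as a pairing, since not every pair correlated above 0.1. Over 14 pairs of libraries of different genotype with the same first number, deviations from the genotype means correlated between -0.627 and 0.351 (median 0.1, against -0.043 for pairs of different number), and the 5 pairs numbered 685 between 0.107 and 0.299.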

Additional observations from a re-analysis of the deposited data

Results flagged for a closer look

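WT library 685-2 stood apart from the other WT libraries for the surfactant genes. Its Sftpc level was 2.19 log2 CPM (66 counts, against 0 to 1 in the other 3 WT libraries), and its Sftpa1 level was -1.56 log2 CPM (4 counts, against 0). In each case the gap to the nearest library, as a share of the range, exceeded Dixon's critical value for 4 libraries. Among normally distributed values chance passes it in about 1 of 20 groups (5%), and 17 groups were examined. That rate does not apply here, because the other WT libraries lay at or near the floor of 0 counts. For Sftpa1 they all had 0 counts, which fixed the share at 1. The flag is therefore a description. The same library held 17 counts of Nkx2-1. With it left out, 0 of the other 9 members and 893 of all genes were called against WT, and Aqp5 changed by 3.81. What set this library apart was not tested.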

How the results depend on the processing

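The number of libraries, 4 against 3, limited every comparison, and Nkx2-1, Sftpc, Epcam and Cdh1 had few reads in WT cells. Of the other 9 members, 3 were called against WT under each setting except those named here, which were 1 with the suffix covariate, 0 with the suffix of the file names, 0 among libraries without a suffix (1 WT library, assumed to vary like the Sp3-/- ones) and 0 to 3 with a library left out. Against Sp3+/- cells 3 were called except 0 with either suffix covariate and 2 to 3 with a library left out. The change of Aqp5, given without a test, was against WT 3.07 with the suffix of the file names, 3.06 among libraries without a suffix (where 0 of all genes were called by edgeR and 1337 had an unadjusted p below 0.05) and 3.23 to 3.87 with a library left out. Against Sp3+/- it was 2.84 with the suffix of the file names and between 3.02 and 3.77 in the other fits run. In the fit of unsuffixed libraries, Cdh1 changed by 3.60, Epcam by 1.70 and Pdpn by 0.60. Over all genes, 2599 were called against WT, but 4297 by DESeq2, 4031 with the block, 3977 with all 11 libraries, 1329 with the suffix covariate, 163 with the suffix of the file names and 282 to 4179 with a library left out. Against Sp3+/- the count was 3607, 763 with the suffix covariate and 0 with the suffix of the file names (1168 at an unadjusted p below 0.05). The 4 calls among mesothelial genes became 9 by DESeq2, 8 with the block, 7 with all 11 libraries, 2 without a filter and 1 with the suffix covariate. With the suffix of the file names, calls against WT were 1 for repressors and 0 for each of the other lists. With a library left out, calls against WT ranged from 0 to 10 for pan-epithelial, 1 to 5 for type 1, 1 to 2 for type 2, 0 to 3 for transcription factors, 0 to 5 for junctions, 1 to 5 for mesothelial, 0 to 10 for macrophage, 1 to 6 for mesenchymal, 0 to 4 for endothelial and 2 to 5 for repressor genes. Akap5, Abca3, Snai2 and Twist2 were called in all 7 of these fits.

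Whether the first title number marks a shared litter or batch was not resolved. With it as a replicate block, 3 of the other 9 members were called in either comparison, Aqp5 changed by 3.98 against WT and by 3.77 against Sp3+/-, Cdh1 by 6.14, Epcam by 4.77 and Pdpn by 1.12 against WT.

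Direction turned for changes that were not called and, against Sp3+/-, for Epcam (-0.22 with the suffix of the file names), and the cause was not tested. Against WT, Nkx2-1 was 0.56 by limma-voom, 0.44 with consensus correlation, 4.37 with the suffix covariate and 4.68 with that of the file names, Sftpc 3.23 with the latter, Racgap1 0.38 and 0.58 with these covariates and 0.57 without suffixed libraries, Igfbp2 0.37 with the replicate block, and with a library left out Igfbp2 ranged from -1.51 to 0.37 and Ccdc39 from -0.18 to 0.32. Against Sp3+/-, Nkx2-1 was 5.47 and Sftpc 3.09 with the suffix covariate, 5.81 and 8.24 with that of the file names, and Sftpc 0.085 by limma-voom and 0.079 with consensus correlation. Of Sp3+/- against WT, Nkx2-1 was 1.08 by limma-voom and 1.10 with consensus correlation, Ager 0.081 and Hopx -0.057 with the suffix of the file names, and with a library left out Aqp5 ranged from -0.026 to 0.474, Ager from -0.446 to 0.065, Hopx from -0.031 to 0.377 and Epcam from -0.184 to 1.948.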

Other observations

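Genes of the lung mesenchyme itself went mostly the other way. Of 13 tested against WT, 5 were called lower and 1 higher, with a median log2 fold change of -0.85. Fgf10, the mesenchymal ligand for the epithelial receptor Fgfr2, fell by 2.54 on the log2 scale (adjusted p = 0.0329, edgeR), Pdgfrb by 2.13 (adjusted p = 0.0114), and Wnt2 rose by 2.12 (adjusted p = 0.0355). Fgf10 overlapped between the genotypes, with 6.97 CPM in WT library 697-3 and 4.40 to 7.51 in Sp3-/- libraries. Wnt2 measured 6.59 to 21.8 CPM in Sp3-/- libraries and 8.33 in Sp3+/- library 697-4. With a library left out, Pdgfrb was called in 7 of 7 fits, and Fgf10 and Wnt2 in 2 each. Col1a1, the most abundant gene of the list, was not called (-0.92, adjusted p = 0.193). The list summed to 13200 to 22270 CPM in WT and 7176 to 19190 in Sp3-/- libraries, and the lowest sum, in 697-5, stood beside the highest Aqp5 level. Of 9 endothelial genes tested against WT, Vwf (2.23, adjusted p = 0.0478) and Esam (1.89, adjusted p = 0.0288) were called higher and 0 lower, with a median of 0.02. Against Sp3+/- cells 1 of the 9 was called higher and 0 lower, 6 were fitted higher and 3 lower, and the median was 1.29.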
